A study of Homo sapiens with 6 samples.

Results

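Immediate-early genes and the feedback inhibitors of extracellular signal-regulated kinase (ERK) were followed in Hep3B cells whose DAGLA expression had been reduced by a hairpin. The set held 10 genes of the 29908 in the expression table, found by their Ensembl identifiers, which GENCODE release 29 pairs with the symbols FOS, FOSL1, JUN, EGR1, DUSP1, DUSP4, DUSP5, DUSP6, SPRY2 and SPRY4. All 10 had a row. The first 4 genes encode transcription factors, DUSP1 to DUSP6 encode 4 dual-specificity MAP kinase phosphatases, and SPRY2 and SPRY4 encode Sprouty proteins. Hep3B is an established human hepatocellular carcinoma (HCC) line. Hep3B-KD cells (n = 3 libraries) carried a lentiviral short hairpin RNA that targets DAGLA, which encodes diacylglycerol lipase alpha, the enzyme that makes the endocannabinoid 2-arachidonoylglycerol. Hep3B-Con cells (n = 3 libraries) carried the control lentivirus, which the sample titles call shControl and the design text an empty vector. Both lines received virus at a multiplicity of infection of 5 and puromycin, and both grew with 10% fetal bovine serum, in DMEM by the sample records and in MEM-alpha by the study's methods. The methods describe the surviving cells as stably transduced clones, and nothing in the sources used here says how long the cells had been without fresh serum when RNA was taken. The 3 libraries of a group are described as biological replicates without further detail, so every p-value measures the spread between these samples.

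Serum and growth factors activate RAS, RAF, MEK and ERK in turn, and ERK phosphorylates ternary complex factors and kinases of CREB at promoters that are already loaded, so that immediate-early genes are transcribed within minutes and without new protein synthesis. FOS, FOSL1 and JUN are subunits of the dimeric factor AP-1, and EGR1 is a zinc-finger factor. ERK also switches on its own inhibitors: DUSP1, DUSP4 and DUSP5 remove phosphate from MAP kinases in the nucleus, DUSP6 does so to ERK in the cytoplasm, and Sprouty proteins restrain the pathway at the level of receptors, RAS and RAF.

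The expression values were FPKM (fragments per length of gene exons and per reads of the library), from libraries of 15861039 to 17572714 reads. DAGLA checked the labels: it averaged 9.28 ± 0.228 FPKM in the control and 4.62 ± 0.164 FPKM in the knockdown libraries (SD, n = 3 each), with no overlap. All 10 listed hepatocyte markers passed the filter on low values, with ALB at 2022 to 2071 FPKM in Hep3B-Con and 3310 to 3323 FPKM in Hep3B-KD. Of these markers 7 rose and 3 fell in the test described below (median log2 fold change 0.63), among them APOB (1.20), TTR (0.96) and TF (0.95), which rose, and FGB (-0.96), which fell. Endothelial and leukocyte markers summed to at most 0.385 and 1.38 FPKM in any library, the latter mostly through CD14 (at most 1.28 FPKM). The leukocyte markers CD68 and CD3E and the fibroblast marker ACTA2 were not analysed here and are not in these sums. Fibroblast markers summed to between 9.28 and 10.2 FPKM in Hep3B-Con and between 5.48 and 5.96 FPKM in Hep3B-KD, through COL1A1, LUM and PDGFRB, while COL3A1 and DCN had at most 2 reads in a library. COL1A2 lay under the filter, at no more than 0.150 FPKM. COL1A1, LUM and PDGFRB were called lower, as were 5 genes of the set, and the part of the markers in the set's changes was not tested. COL1A1, at means of 0.745 FPKM in Hep3B-Con and 0.271 FPKM in Hep3B-KD, passed the filter only through Hep3B-Con.

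In the design of the knockdown, the hairpin's target and the strand complementary to it, which is taken here as its guide, are given because a short match to the guide's bases 2 to 8 (the seed, in capitals) can lower other transcripts. The target site in DAGLA carries the matching letters in capitals.
shDAGLA target: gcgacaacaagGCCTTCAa
shDAGLA guide: tTGAAGGCcttgttgtcgc
In the GENCODE 29 transcripts the whole target of 19 bases was found in 2 transcripts, both of DAGLA. The seed match GCCTTCA occurred in the 3' UTR of FOSL1 and DUSP1 and of no other gene of the set, against 16.5% of the 11221 tested genes with an annotated 3' UTR. In the test described below, the median log2 fold change was -0.020 over the 1855 of these tested genes with the match. It was 0.107 over those without it, and the cause of this difference was not tested.

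Promoters of EGR1, FOS, JUN and DUSP1 are shown because EGR1, FOS and DUSP1 had lower values in every Hep3B-KD library and JUN had not. The 250 bases before the RefSeq start site (GRCh38.p14) are printed 5' to 3' on the strand of the gene, from chr5:138465229-138465478 (plus) for EGR1, chr14:75278578-75278827 (plus) for FOS, chr1:58784048-58784297 (minus) for JUN and chr5:172771196-172771445 (minus) for DUSP1. Capitals mark, on either strand, CArG boxes (2 C, then 6 bases of A or T, then 2 G, the letters bound by serum response factor), the CREB core TGACG or its reverse CGTCA, and the AP-1-like octamer TGACATCA.
EGR1: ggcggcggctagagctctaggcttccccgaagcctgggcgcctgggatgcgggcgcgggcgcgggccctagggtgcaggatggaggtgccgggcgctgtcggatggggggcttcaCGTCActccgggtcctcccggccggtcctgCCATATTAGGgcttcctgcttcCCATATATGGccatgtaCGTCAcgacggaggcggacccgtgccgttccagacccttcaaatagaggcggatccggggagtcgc
FOS: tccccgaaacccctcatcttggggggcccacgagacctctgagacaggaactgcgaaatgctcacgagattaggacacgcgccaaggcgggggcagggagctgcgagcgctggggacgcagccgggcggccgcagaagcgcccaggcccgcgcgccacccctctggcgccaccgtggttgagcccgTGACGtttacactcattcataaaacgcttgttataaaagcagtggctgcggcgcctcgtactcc
JUN: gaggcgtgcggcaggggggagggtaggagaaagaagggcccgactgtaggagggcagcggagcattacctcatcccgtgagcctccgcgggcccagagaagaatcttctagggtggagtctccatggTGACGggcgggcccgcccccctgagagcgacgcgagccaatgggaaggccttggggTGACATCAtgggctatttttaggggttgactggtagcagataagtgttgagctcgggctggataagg
DUSP1: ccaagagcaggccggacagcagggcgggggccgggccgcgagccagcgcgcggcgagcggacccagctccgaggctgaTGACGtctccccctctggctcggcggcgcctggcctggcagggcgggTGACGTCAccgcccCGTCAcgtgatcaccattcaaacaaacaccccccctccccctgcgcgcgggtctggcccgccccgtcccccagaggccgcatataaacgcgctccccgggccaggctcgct
EGR1 held 2 CArG boxes, which began 105 and 83 bases before the start site, and 2 copies of the CREB core. Such a box was present in 1.29% of the 27305 RefSeq promoter windows, 1 per gene, which run from 250 bases before to 50 after the start, and in 0.973% of those of tested genes. DUSP1 held 4 copies of the core, 2 of which overlap in the palindrome TGACGTCA, which occurred in 1.98% of all windows and in 3.37% of the 9354 windows of tested genes. FOS held 1 core, 64 bases before the start and upstream of a TATA box; its serum response element is known to lie further upstream than this window. JUN held 1 core and, 67 bases before the start, the octamer TGACATCA, which occurred in 2.71% of all windows and in 1.39% of those of tested genes. Of the 10 genes 7 had an entry among the promoters. The core was found in 6 of these, all but DUSP6 and for SPRY2 in 1 of its 3 windows, against 25.0% of all windows and 34.8% of those of tested genes. These matches describe letters and do not show that a factor was bound. GENCODE 29 starts its longest JUN model upstream of this window.

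**Figure D1:**
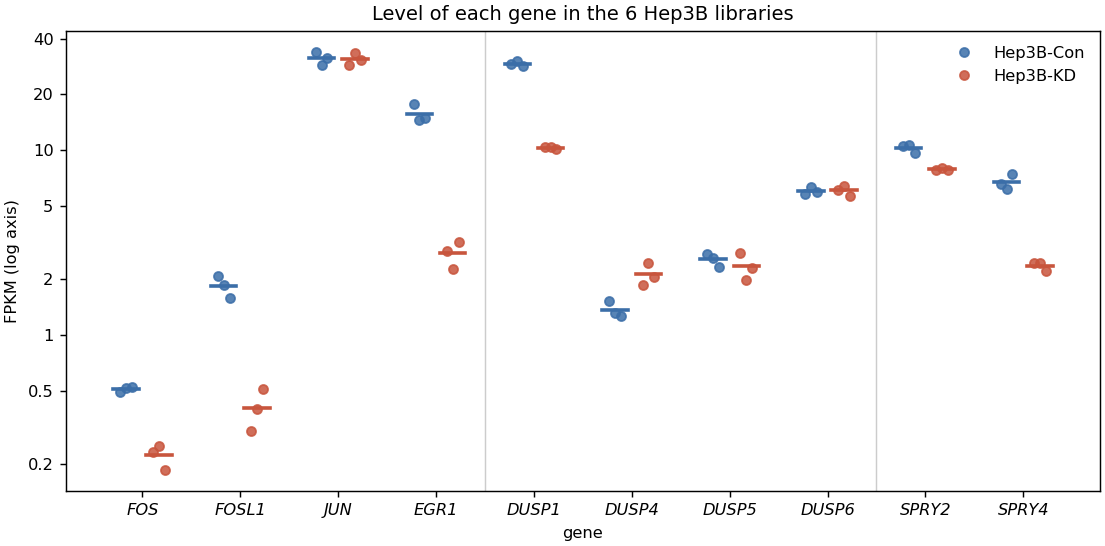
FPKM on a log axis of the 10 genes (x axis) in the 3 Hep3B-Con and the 3 Hep3B-KD libraries, 1 point per library with a line at the mean of each group. The groups do not overlap in FOS, FOSL1, EGR1, DUSP1, SPRY2 and SPRY4, where Hep3B-KD lies lower, or in DUSP4, where it lies higher, and they overlap in JUN, DUSP5 and DUSP6.

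In Hep3B-KD cells 4 of the genes were at least 2-fold lower, EGR1, FOSL1, DUSP1 and SPRY4, SPRY2 was lower by less, DUSP4 was higher, and JUN, DUSP5 and DUSP6 did not pass the test. Genes were tested with limma on log2(FPKM + 0.1) where the mean over the 6 libraries was at least 0.5 FPKM, which 9 of the 10 genes reached and FOS did not. Of these 9 genes 5 had an adjusted p under 0.05 and were lower in Hep3B-KD, as were 23.8% of the 14221 genes tested. 1 gene was higher, against 36.1% of all genes tested. With a change of at least 2-fold added, 4 of the 9 were lower, against 2.94% of all genes, and 0 were higher, against 5.89%. Every Hep3B-KD library was lower than every Hep3B-Con library in 6 of the 10 genes and in 5 of the 9 tested, against 26.3% of all genes tested. The members and the lists below were chosen with earlier results of these data known. Their counts beside the shares of all genes are therefore a description and not a test. The median log2 fold change (Hep3B-KD against Hep3B-Con, here and throughout) of the 9 genes was -0.37, and that of all genes tested was 0.11. Centring the libraries on their median log ratio moved the median of all genes to 0.0059 and the calls over all genes from 3388 lower and 5133 higher to 4308 lower and 4064 higher, and left the calls of the set at 5 lower and 1 higher.

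EGR1 (ENSG00000120738, chromosome 5, 138465490 to 138469315 on the plus strand) showed the largest change of the set. It encodes a factor that binds GC-rich promoters and is among the most sensitive reporters of ERK activity. Its FPKM was 17.8, 14.6 and 14.8 in Hep3B-Con replicates 1 to 3 and 2.85, 2.26 and 3.17 in Hep3B-KD replicates 1 to 3. The lowest Hep3B-Con library stood well above the highest Hep3B-KD library, and the means were 15.7 ± 1.80 and 2.76 ± 0.460 FPKM (SD, n = 3 each), a 5.70-fold difference. The log2 fold change was -2.48 (SE 0.134, adjusted p = 1.14e-05). Between 114 and 982 reads lay behind a value.

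FOSL1 (ENSG00000175592, chromosome 11, 65892049 to 65900573 on the minus strand) encodes FRA1, the AP-1 subunit whose level follows sustained ERK activity and which ERK phosphorylation stabilises. It was measured at 2.08, 1.86 and 1.59 FPKM in Hep3B-Con and at 0.301, 0.396 and 0.511 FPKM in Hep3B-KD. The groups did not overlap, and the means of 1.84 ± 0.245 and 0.403 ± 0.105 FPKM (SD, n = 3 each) differed 4.58-fold. FOSL1 fell by 1.97 on the log2 scale (SE 0.208, adjusted p = 2.23e-04). Since only 9 to 16 reads lay behind the Hep3B-KD values, the size depended on the pseudocount: with 1 in place of 0.1 the log2 fold change was -1.02 and with voom on the recovered reads it was -2.17. Its 3' UTR holds the seed match shown above, whose part in the fall was not tested.

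FOS (ENSG00000170345, chromosome 14, 75278774 to 75282230 on the plus strand), the founding AP-1 partner, was scarce in both lines. Its FPKM was 0.492, 0.515 and 0.520 in Hep3B-Con, from 28 or 29 reads, and 0.234, 0.250 and 0.186 in Hep3B-KD, from 10 to 13 reads. No Hep3B-KD value reached the lowest Hep3B-Con value, and the means differed 2.28-fold. FOS lay under the filter and has no test among the 14221 genes. Without a filter, over all 29908 genes, its log2 fold change was -0.92 (SE 0.235, adjusted p = 0.0291).

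JUN (ENSG00000177606, chromosome 1, 58780788 to 58784327 on the minus strand) was the most abundant gene of the set, and its level was close in both lines. It encodes the AP-1 subunit that can form homodimers and that the kinase JNK activates. FPKM was 33.9, 28.9 and 31.4 in Hep3B-Con and 28.9, 33.4 and 30.7 in Hep3B-KD. The ranges overlapped almost wholly. The log2 fold change was -0.02 (95% interval -0.19 to 0.16, adjusted p = 0.838).

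Other AP-1 subunits fell where JUN did not pass the test. Of 12 listed, 8 were tested, 7 fell and 0 rose (background 23.8% and 36.1%), and their median log2 fold change was -0.72, beside 0.11 over all genes. JUNB, a weaker activator than JUN that can oppose it, was at 96.9, 68.3 and 72.8 FPKM in Hep3B-Con and at 24.9, 35.8 and 25.4 FPKM in Hep3B-KD (log2 fold change -1.47, adjusted p = 4.67e-04). JUND, with values of 35.8, 23.0 and 25.0 against 16.0, 23.6 and 17.8 FPKM, did not pass (log2 fold change -0.54, adjusted p = 0.0565), and its groups overlapped. FOSL2, which encodes FRA2, fell by 0.91, MAFF, a small MAF protein, fell by 1.25, and the stress-induced factor ATF3 fell by 0.80. FOSB lay under the filter at 0.394 to 0.584 FPKM in Hep3B-Con and 0.0785 to 0.152 FPKM in Hep3B-KD. JUNB and JUND were highest within their groups in Hep3B-Con replicate 1 and Hep3B-KD replicate 2, as were KLF2 and the heat shock gene HSPB1. The same held for JUN and DUSP4 of the set, and for the AP-1 subunits FOSL2, ATF3, JDP2, MAFF and MAFG. Without these 2 libraries, a choice made after seeing the data, the calls of the set stayed at 5 lower and 1 higher, EGR1 fell by 2.25, and all 8 AP-1 subunits tested were called lower.

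Because FPKM is scaled to gene length, levels within a family can be added. JUN made up 22.9 ± 2.23% of the summed JUN, JUNB and JUND FPKM in Hep3B-Con and 39.6 ± 3.16% in Hep3B-KD (SD, n = 3 each; exact permutation test, two-sided, p = 0.1, below which groups of 3 cannot go). JUNB went from 57.1% to 36.2% of the sum, so that the summed JUN family fell from 138.7 to 78.8 FPKM while JUN itself did not pass the test. FOSL1 was 36.8 ± 3.48% of the summed FOS, FOSB, FOSL1 and FOSL2 FPKM in Hep3B-Con and 21.5 ± 3.46% in Hep3B-KD (exact permutation test, p = 0.1). FOSL2 took 43.4% and 59.9%, and the sum went from 5.03 to 1.85 FPKM. In neither family did the share of the named gene overlap between the groups.

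**Figure D2:**
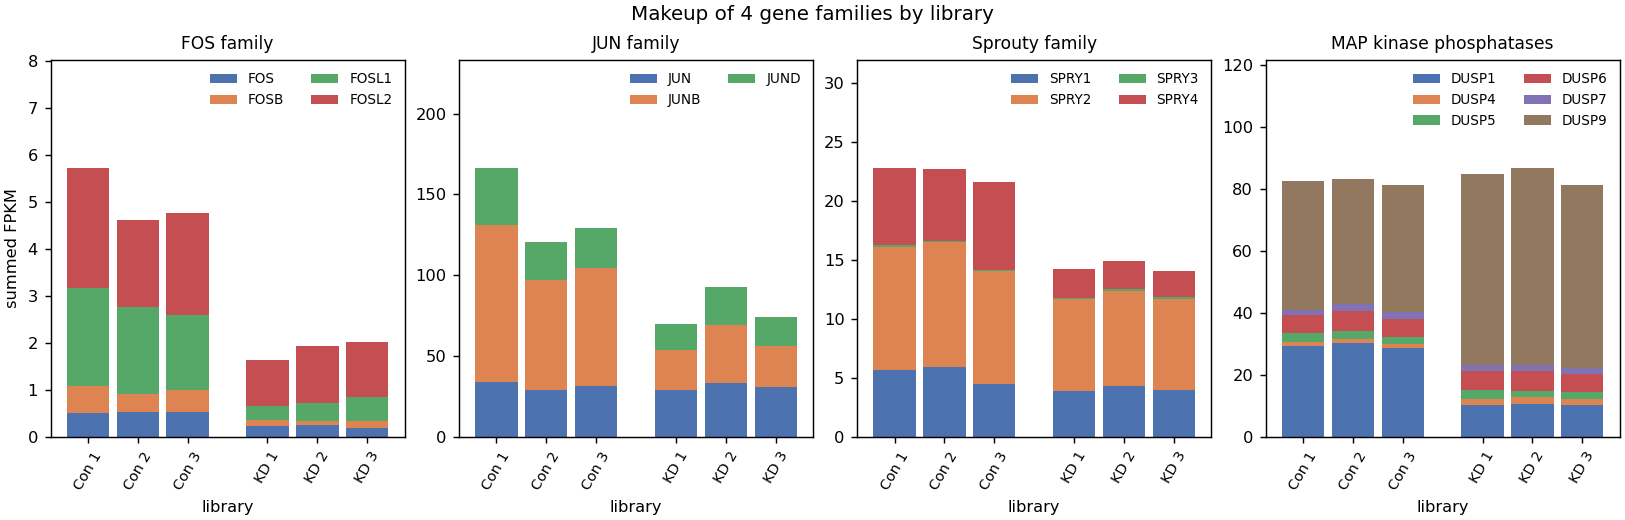
Summed FPKM (y axis, from 0) of the FOS, JUN, Sprouty and MAP kinase phosphatase families in each of the 6 libraries (x axis), with a colour for each gene. JUNB shrinks within a smaller JUN family, and SPRY4 shrinks within a smaller Sprouty family. In the phosphatases a smaller DUSP1 stands beside a larger DUSP9 at a similar sum of the genes drawn. DUSP2, with at most 1 read in a library, is not drawn. DUSP8, DUSP10 and DUSP16 are not in the sum, and DUSP8 and DUSP16 were called lower in Hep3B-KD.

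Among the phosphatases, DUSP1 fell, DUSP4 rose, and DUSP5 and DUSP6 stayed within the spread of the libraries. DUSP1 (ENSG00000120129, chromosome 5, 172768090 to 172771195 on the minus strand) encodes MKP-1, a nuclear phosphatase that prefers p38 and JNK and is itself an immediate-early gene. Its FPKM was 29.1, 30.2 and 28.5 in Hep3B-Con and 10.3, 10.4 and 10.1 in Hep3B-KD. The spread within each group was small beside the gap, with means of 29.3 ± 0.860 and 10.3 ± 0.174 FPKM (SD, n = 3 each) and a 2.85-fold difference. DUSP1 fell by 1.50 on the log2 scale (SE 0.0322, adjusted p = 3.48e-07). It is the second gene of the set with the seed match in its 3' UTR, whose part was not tested. Of the set's tested genes without the match, EGR1, SPRY2 and SPRY4 fell, DUSP4 rose, and JUN, DUSP5 and DUSP6 did not pass.

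DUSP4 (ENSG00000120875, chromosome 8, 29333064 to 29350668 on the minus strand) encodes MKP-2, a nuclear phosphatase of ERK and JNK, and was the 1 gene of the set that rose. Its level was low, at 1.52, 1.32 and 1.26 FPKM in Hep3B-Con and at 1.87, 2.46 and 2.07 FPKM in Hep3B-KD. The lowest Hep3B-KD library lay above the highest Hep3B-Con library, and 152 to 287 reads lay behind the values. The log2 fold change was 0.60 (SE 0.130, adjusted p = 0.00649). It was 0.36 with quantile normalization, where the adjusted p was 0.0521 and DUSP4 was no longer called, while the 16 other alternatives gave an adjusted p under 0.05.

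DUSP5 (ENSG00000138166, chromosome 10, 110497838 to 110511544 on the plus strand) encodes a nuclear phosphatase specific to ERK. Its values were 2.74, 2.62 and 2.34 FPKM in Hep3B-Con and 2.77, 1.98 and 2.30 FPKM in Hep3B-KD, with Hep3B-KD replicate 1 the highest of all 6. The groups overlapped, and the log2 fold change was -0.13 (95% interval -0.45 to 0.18, adjusted p = 0.420).

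DUSP6 (ENSG00000139318, chromosome 12, 89347232 to 89353271 on the minus strand) encodes MKP-3, the cytoplasmic ERK phosphatase that is often read as a gauge of ERK output. It was measured at 5.75, 6.35 and 5.93 FPKM in Hep3B-Con and at 6.11, 6.41 and 5.67 FPKM in Hep3B-KD, in overlapping ranges. The log2 fold change was 0.01 (95% interval -0.14 to 0.16, adjusted p = 0.872). An opposite-strand gene, AC024909.2, shares 1875 of its 4632 exon bases and was at most at 0.0756 FPKM, and whether reads were counted by strand is not given in the sources used here.

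Of the other 6 MAP kinase phosphatases 5 were tested, 2 fell, 1 rose and 2 did not pass (background 23.8% and 36.1%). Their median log2 fold change was -0.07. DUSP9, a cytoplasmic ERK phosphatase of the DUSP6 subfamily, went from 40.5 to 41.4 FPKM in Hep3B-Con to 59.1 to 63.9 FPKM in Hep3B-KD (log2 fold change 0.58, adjusted p = 1.15e-05). DUSP16 and DUSP8, which prefer JNK and p38, had log2 fold changes of -0.49 and -0.34. DUSP7 and DUSP10 had log2 fold changes of -0.07 and 0.19 and did not pass. As a share of the summed FPKM of DUSP1, DUSP2, DUSP4, DUSP5, DUSP6, DUSP7 and DUSP9, DUSP1 went from 35.6 ± 0.644% to 12.2 ± 0.212% and DUSP9 from 49.9 ± 1.06% to 72.9 ± 0.501% (SD, n = 3 each; exact permutation test, p = 0.1 for both). DUSP6 held 7.30 ± 0.326% and 7.19 ± 0.199% (exact permutation test, p = 0.7). The summed level was 82.3 ± 0.986 FPKM in Hep3B-Con and 84.3 ± 2.86 FPKM in Hep3B-KD (exact permutation test, p = 0.4). This sum leaves out DUSP8, DUSP10 and DUSP16, of which DUSP8 and DUSP16 fell.

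Both Sprouty genes of the set fell. SPRY4 (ENSG00000187678, chromosome 5, 142310427 to 142326455 on the minus strand) was at 6.56, 6.13 and 7.40 FPKM in Hep3B-Con and at 2.45, 2.44 and 2.20 FPKM in Hep3B-KD. The groups lay far apart, with means of 6.70 ± 0.650 and 2.36 ± 0.139 FPKM (SD, n = 3 each). SPRY4 fell by 1.46 on the log2 scale (SE 0.0841, adjusted p = 1.45e-05), a 2.83-fold difference of the means.

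SPRY2 (ENSG00000136158, chromosome 13, 80335976 to 80340951 on the minus strand), the best studied Sprouty and one reported as low in HCC, fell by less. FPKM was 10.5, 10.6 and 9.59 in Hep3B-Con and 7.82, 8.03 and 7.78 in Hep3B-KD, again with no overlap. It fell by 0.37 on the log2 scale (SE 0.0479, adjusted p = 5.87e-04), a 1.30-fold difference of the means. The share of SPRY4 in the summed FPKM of the 4 Sprouty genes went from 30.0 ± 3.83% to 16.4 ± 0.773% (SD, n = 3 each; exact permutation test, p = 0.1), and that of SPRY2 from 45.7 ± 1.14% to 54.8 ± 0.860%. Of the other 6 Sprouty and SPRED inhibitors 4 were tested, 3 fell and 1 rose (background 23.8% and 36.1%, median log2 fold change -0.34). SPRY1 (log2 fold change -0.38, adjusted p = 0.0198) and the related RAF inhibitors SPRED1 (-0.34) and SPRED2 (-0.35) were those called lower. SPRY1 lost its call without Hep3B-Con replicate 1, Hep3B-Con replicate 2, Hep3B-KD replicate 1 or Hep3B-KD replicate 3, and without Hep3B-Con replicate 1 and Hep3B-KD replicate 2 together, with adjusted p-values of up to 0.0735 that left 2 genes of the list called lower. IL17RD, also known as SEF, was called higher (0.29, adjusted p = 0.0326), a call lost under 10 of the 17 alternatives. SPRY3 and SPRED3 lay under the filter.

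**Figure D3:**
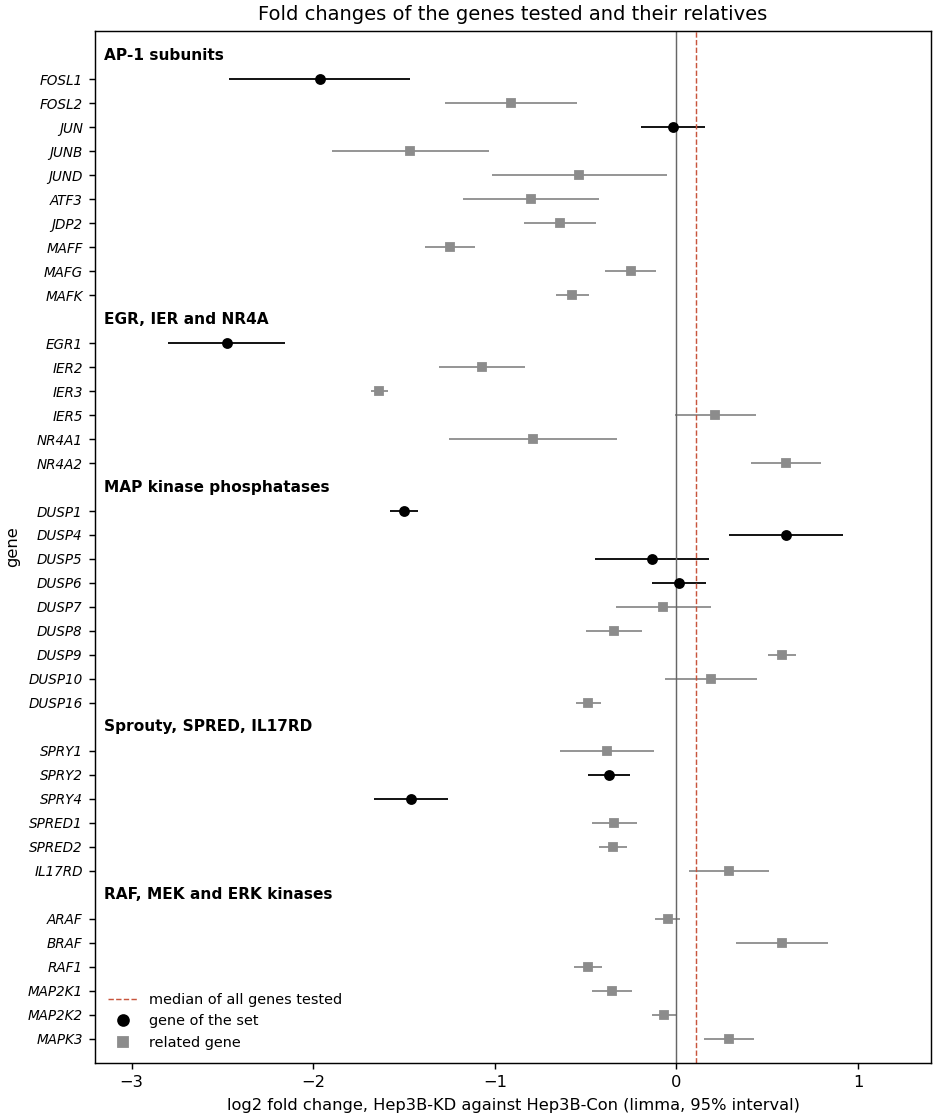
Log2 fold change (x axis, limma on log2(FPKM + 0.1), Hep3B-KD against Hep3B-Con) with its 95% interval for the 9 genes of the set that were tested (black circles) and their relatives (grey squares), by family; the dashed line is the median of all genes tested, 0.11. AP-1 subunits other than JUN lie below 0, the phosphatases lie on both sides, and the RAF, MEK and ERK kinases drawn here lie within 0.6 of 0.

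Ordered by level per length, the set ran in Hep3B-Con from JUN (31.4 FPKM) and DUSP1 (29.3), whose libraries overlapped, through EGR1 (15.7) and SPRY2 (10.2) to SPRY4 (6.70) and DUSP6 (6.01), which overlapped, and then to DUSP5 (2.57), FOSL1 (1.84), DUSP4 (1.37) and FOS (0.509). In Hep3B-KD the order was JUN (31.0 FPKM), DUSP1 (10.3), SPRY2 (7.88) and DUSP6 (6.07), then EGR1 (2.76), SPRY4 (2.36), DUSP5 (2.35) and DUSP4 (2.13), each of which overlapped with the next, and last FOSL1 (0.403) and FOS (0.223). EGR1 thus stood above SPRY2 in every Hep3B-Con library and below DUSP6 in every Hep3B-KD library. In bulk RNA a lower level in every cell and fewer cells with the transcript cannot be told apart.

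Across the other immediate-early genes, 21 of 27 listed were tested, 11 fell, 5 rose and 5 did not pass (background 23.8% and 36.1%). Their median log2 fold change was -0.35. EGR3 was not analysed here, and EGR2 and EGR4 had at most 6 and 2 reads in a library, so EGR1 was the only EGR gene above the filter among those read. IER3, a regulator of survival that ERK phosphorylates, went from between 102 and 104 FPKM to between 32.7 and 33.6 FPKM and fell by 1.64 (adjusted p = 5.05e-08). IER2 fell by 1.07 and the matrix protein gene CTGF fell by 0.93. SGK1, a kinase gene induced by serum and glucocorticoids, rose by 1.36 (adjusted p = 9.33e-07), from between 5.69 and 6.05 FPKM to between 14.9 and 15.6 FPKM.

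Genes that report ERK output over a longer time moved both ways. Of 12 listed 10 were tested, 5 fell, 4 rose and 1 did not pass (background 23.8% and 36.1%, median log2 fold change -0.28). ETV5, among those that fell, lost its call under 9 of the 17 alternatives. The cytokine LIF fell by 2.51, the ETS factor ETV4 fell by 1.60 and the receptor kinase EPHA2 fell by 0.84. HMGA2, an architectural chromatin protein, rose by 0.79. The cascade itself, from RAS to the ERK-activated kinases, had 28 of 31 genes tested. Of these 5 fell and 13 rose (background 23.8% and 36.1%). Their median log2 fold change was 0.08, beside 0.11 over all genes. Centring on the median log ratio called 11 lower. SHC1, the adaptor that links receptors to RAS, fell by 1.29, NRAS fell by 1.02 and RPS6KA6, an S6 kinase of low level, rose by 1.32. RPS6KA6 averaged 0.254 FPKM in Hep3B-Con and 0.787 FPKM in Hep3B-KD, so it passed the filter of 0.5 FPKM only through Hep3B-KD. It was tested in 12 of the 17 alternatives. The kinases nearest to the set changed little: ERK1 (MAPK3) rose by 0.29 and MEK1 (MAP2K1) fell by 0.35, while MEK2 (MAP2K2) did not pass (log2 fold change -0.07, adjusted p = 0.0627). These are transcript levels and do not measure phosphorylation.

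All 10 listed factors that bind immediate-early promoters, or coactivate there, were tested. Of these 4 fell and 6 rose (background 23.8% and 36.1%, median log2 fold change 0.22). ATF1, among those that rose, lost its call under 9 of the 17 alternatives. MRTFB, a coactivator of serum response factor, rose by 1.07, the ternary complex factor ELK3 fell by 1.04, ELK4 rose by 0.52 and ATF2 fell by 0.48. Of 11 JNK and p38 pathway kinases, the kinases whose outputs DUSP1 restrains, 10 were tested. Of these 4 fell and 5 rose (background 23.8% and 36.1%, median log2 fold change -0.0018). MAPK12, among those that rose, lost its call under 11 of the 17 alternatives, with its sign reversed in 1. MAP2K6 rose by 1.44 and MAP2K3 fell by 0.77, both activators of p38, while MAPK8 (JNK1) rose by 0.55 and MAP2K7 fell by 0.42. Heat shock genes, some of which handling of cells can induce along with FOS and EGR1, had 7 of 8 tested. Of these 5 fell and 1 rose (background 23.8% and 36.1%, median log2 fold change -0.31). HSPA8 fell by 0.70, DNAJB1 fell by 0.46, HSPA1A fell by 0.32 and HSPH1 fell by 0.31, and their part in the fall of the set was not tested.

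Gene spans and letters of the 3' UTR are given as a description of the set. All 10 gene spans were shorter than the median of 32808 bases over the tested genes with a 3' UTR, and their own median was 5508 bases, from DUSP1 with 3106 to DUSP4 with 17605. TATTTAT, a letter run of the AU-rich elements that shorten the life of mRNA, occurred in the longest 3' UTR of 7 of the 10 genes (all but EGR1, DUSP5 and DUSP6), against 35.5% of the tested genes. DUSP1 held 3 copies in 672 bases and FOS 2 in 806. Of the 7 genes with this run, FOSL1, DUSP1, SPRY2 and SPRY4 fell, DUSP4 rose and JUN did not pass. FOS, under the filter, was lower in every Hep3B-KD library. Of the genes without it, EGR1 fell, and DUSP5 and DUSP6 did not pass. The part of the run in these changes was not tested.

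As a description, the patterns most like those of 4 of the genes over the 6 libraries were taken by Pearson's r of log2(FPKM + 0.1) among tested genes outside the set. For EGR1 they were PFAS, GTF2F1 and SLC29A3 (r of at least 0.999), for SPRY4 TSPO, SHCBP1 and MAPK13, and for FOS KDELR3, RRM2 and USP19. With 2 groups that lie far apart, such values mostly reflect the difference between the groups. For DUSP6, whose groups overlap, the nearest were AL121987.2 (r = 0.978), AC010463.3 and POLR1D.

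**Figure D4:**
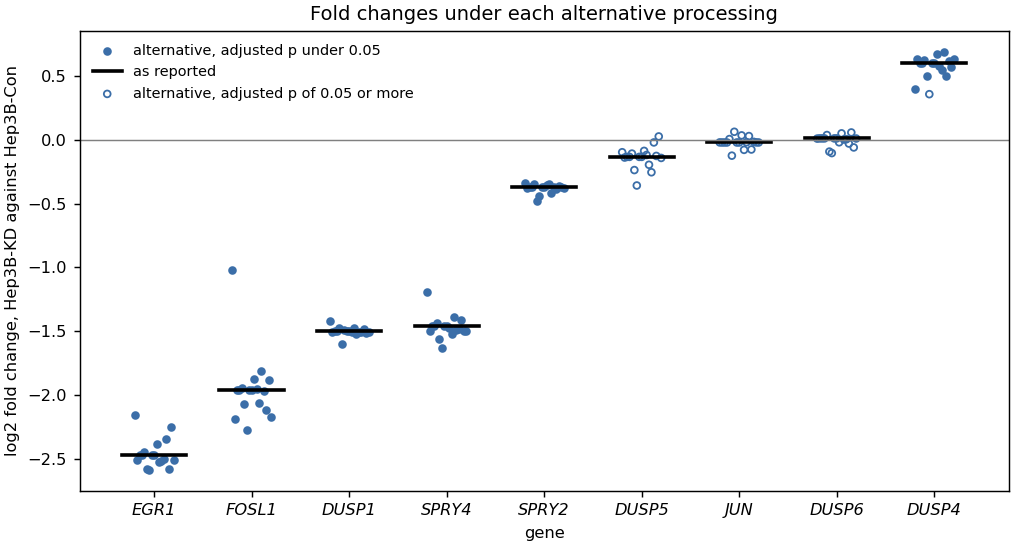
Log2 fold change (y axis) of the 9 tested genes (x axis) under each of 17 alternatives (circles, filled where the adjusted p is under 0.05) beside the reported value (black bar). EGR1, FOSL1, DUSP1, SPRY4 and SPRY2 stay below 0 and filled throughout, DUSP4 stays above 0 with 1 open circle, and DUSP5, JUN and DUSP6 are open on both sides of 0.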

How the data were processed

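RNA-seq of 3 Hep3B-Con and 3 Hep3B-KD samples was used, grouped and numbered by the sample titles. The authors deposited FPKM values for 29908 genes, 1 column per library. Per the study's methods, TruSeq libraries of mRNA were read on an Illumina sequencer. The processing notes list Bowtie2 2.0.6, TopHat2 2.0.12 and GRCh37, with no role. The deposited FPKM values gave whole reads (100% within 0.01) with the exon lengths of GENCODE 29, which was used here on GRCh38 for names and gene coordinates. The counter, the annotation and the handling of strand are not given in the sources used here. The recovered reads summed to 15861039 to 17572714 per library. Depth limits genes of few reads, such as FOS, and covers counting error only.

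Values were analysed as log2(FPKM + 0.1), a scale that understates the change of low genes. The test for the 14221 genes that averaged 0.5 FPKM or more was that of limma 3.58.1 (lmFit, eBayes with a variance trend) in R 4.3.3, with p-values adjusted by Benjamini-Hochberg across the 14221, on all 6 libraries and with no replicate block. Rows whose symbol occurs more than once (382) were kept. The step was tested on simulated data. Shares were compared by two-sided exact permutation tests in Python 3.11.15 (pandas 2.3.3, numpy 2.4.6, scipy 1.17.1); figures were drawn with matplotlib 3.10.9. The members and the gene lists were chosen with earlier results of these data known. Of each list the text names the 4 called genes with the largest absolute log2 fold change, relatives of the members, ERK1, MEK1 and MEK2, and the 3 genes most like FOS, EGR1, DUSP6 and SPRY4. Genes that this rule also takes from the cascade list are not all reported here. KLF2, HSPB1 and some list members were named after their values were seen. Same-numbered libraries of the groups correlated at -0.013, -0.066 and -0.0011 in their deviations from the group means, so the numbers were not taken to pair samples. Alternatives were pseudocounts of 1 and 0.01, no filter or a mean of at least 1 FPKM, 3 scalings, no variance trend, the replicate block, each library left out, and voom on the recovered reads. Leaving out Hep3B-Con replicate 1 and Hep3B-KD replicate 2 together was added after the data were seen.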

Additional observations from a re-analysis of the deposited data

How the results depend on the processing

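EGR1, FOSL1, DUSP1, SPRY4 and SPRY2 kept their direction and an adjusted p under 0.05 (limma) in all 17 alternatives, at -2.59 to -2.16, -2.28 to -1.02, -1.60 to -1.42, -1.63 to -1.19 and -0.47 to -0.34. Values near 0 changed sign: JUN was 0.0077 with the same FPKM sum and 0.065 with quantile normalization, DUSP6 was -0.091 with the median log ratio, -0.10 with quantile normalization and -0.058 without Hep3B-Con replicate 1 and Hep3B-KD replicate 2, and DUSP5 was 0.028 without both and -0.36 with quantile normalization (adjusted p = 0.0504). Leaving out 1 library gave JUN -0.077 to 0.037, DUSP5 -0.25 (without Hep3B-KD replicate 1) to -0.019 (without Hep3B-KD replicate 2), DUSP6 -0.027 to 0.060 and a change of the DUSP6 share of -0.27 to 0.058 percentage points. Quantile normalization gave DUSP4 0.36 (adjusted p = 0.0521), so that 0 genes of the set were called higher, and 477 of all genes at least 2-fold higher. A pseudocount of 1 gave 248 genes at least 2-fold lower and 255 higher, with the members' count still 4. The median log ratio gave 11 lower cascade genes, 3 higher JNK and p38 kinases (also 3 without both libraries) and 0 higher heat shock genes. IL17RD, the 1 higher gene of its list, gave 0 with no filter, the median log ratio, quantile normalization, both libraries left out and the replicate block, and 0 to 1 with 1 library left out. From recovered reads, which are not scaled to length, the shares changed by -7.46 (FOSL1), -1.01 (DUSP6) and -17.8 (SPRY4) percentage points. The cause of these shifts was not tested.

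With the replicate block, EGR1 had an adjusted p of 2.36e-04 and DUSP4 of 0.0237, 5 genes of the set were lower and 1 higher, and over all genes 3153 were lower and 4766 higher. Apart from IL17RD, no count of a list moved by over 1.5 times, and the numbers are not known to pair the samples.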
